A study of Homo sapiens with 6 samples.

Results

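Transcripts of 10 genes that mark the undifferentiated, invasive state of melanoma were followed across 3 lines of A2058, an established human melanoma cell line, and across 2 glucose concentrations. The genes were taken by name: AXL, NGFR, EGFR, WNT5A, PDGFRB, NT5E, JUN, LOXL2, TNC and SOX9. Every probe set that the array's annotation gives to 1 of these genes alone was used, which made 32 of the 54675 probe sets on the array. Of these, 28 had a mean over the arrays above the filter level of 2.64 (log2), and they represented 9 of the 10 genes. The other gene, SOX9, had a pair of probe sets below that level and was not tested. The tests were run over 14428 genes, each represented by the probe set whose mean was highest.

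All 3 lines are A2058. The Mock line is the control, the TET2WT line overexpresses TET2WT, and the TET2M line overexpresses the construct that the labels call TET2M. The sources used here do not give what TET2M changes in the protein, the vector and promoter behind the constructs, or whether each line is 1 clone or a pool. Each line was kept for 7 days in DMEM with high glucose (4.5 g/L) or normal glucose (1 g/L), and total RNA of each of the 6 combinations went on 1 Affymetrix array. No combination was repeated, so the p-values measure only the spread between single arrays around a model that adds a line effect and a glucose effect, and this spread may be technical. Differences are log2 differences with the standard error (SE) from limma, and a gene passed when its Benjamini-Hochberg adjusted p was under 0.05. Mock arrays enter both the TET2WT and the TET2M differences, so these 2 comparisons are not independent.

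Melanoma cells move between a pigmented state driven by the factor MITF, a neural crest-like state marked by the receptor NGFR, and an undifferentiated state in which lineage genes are low and receptor tyrosine kinases such as AXL, EGFR and PDGFRB are high. Cells of the undifferentiated state make matrix and matrix-modifying proteins, signal through WNT5A, depend on AP-1 factors such as JUN, and tend to be invasive and tolerant of inhibitors of the MAP kinase pathway. TET2 oxidises methylated cytosine in DNA, which lies mostly in CpG dinucleotides. The representing TET2 probe set read at least 9.54 in TET2WT, at most 7.57 in TET2M and at most 4.13 in Mock, which matches the labels of the lines. A TET2 probe set with a mean of 4.45 ordered the lines alike, while one with a mean of 5.27 read 5.15 to 5.41 over all arrays. In the representing one TET2WT exceeded TET2M by 2.14 ± 0.14, so these lines differ in TET2 signal as well as in construct. Where a pair of values is given for a line below, high glucose comes before normal glucose.

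A2058 carried only part of the undifferentiated pattern on these arrays. AXL, TNC, WNT5A, LOXL2 and NT5E had representing probe sets between the 91.0 and 98.9 percentiles of all probe sets, and JUN lay at 82.1. PDGFRB, EGFR and NGFR lay at 61.9, 61.2 and 50.7, and the better SOX9 probe set at 18.5. Probe sets differ in brightness per transcript, so these percentiles place a probe set against the array's background and do not rank the genes by abundance. Among 20 melanocyte genes with a usable probe set, 13 passed the filter. SOX10, the neural crest and melanocyte factor whose loss defines the most undifferentiated melanoma lines, read 9.38 to 9.65 and MITF read 6.30 to 6.96 over the 6 arrays. Of the genes of pigment cells, tyrosinase (TYR) at 2.37 to 2.64, TYRP1 at 2.20 to 2.31 and MLANA at 2.16 to 2.32 were below the filter. OCA2 at 5.22 to 5.74, SLC45A2 at 3.10 to 3.53 and PMEL, with a mean of 3.78, were above it. The label of the gene group therefore describes what these genes mark elsewhere, while in this line some of its markers were bright beside SOX10 and others were close to background.

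**Figure D1:**
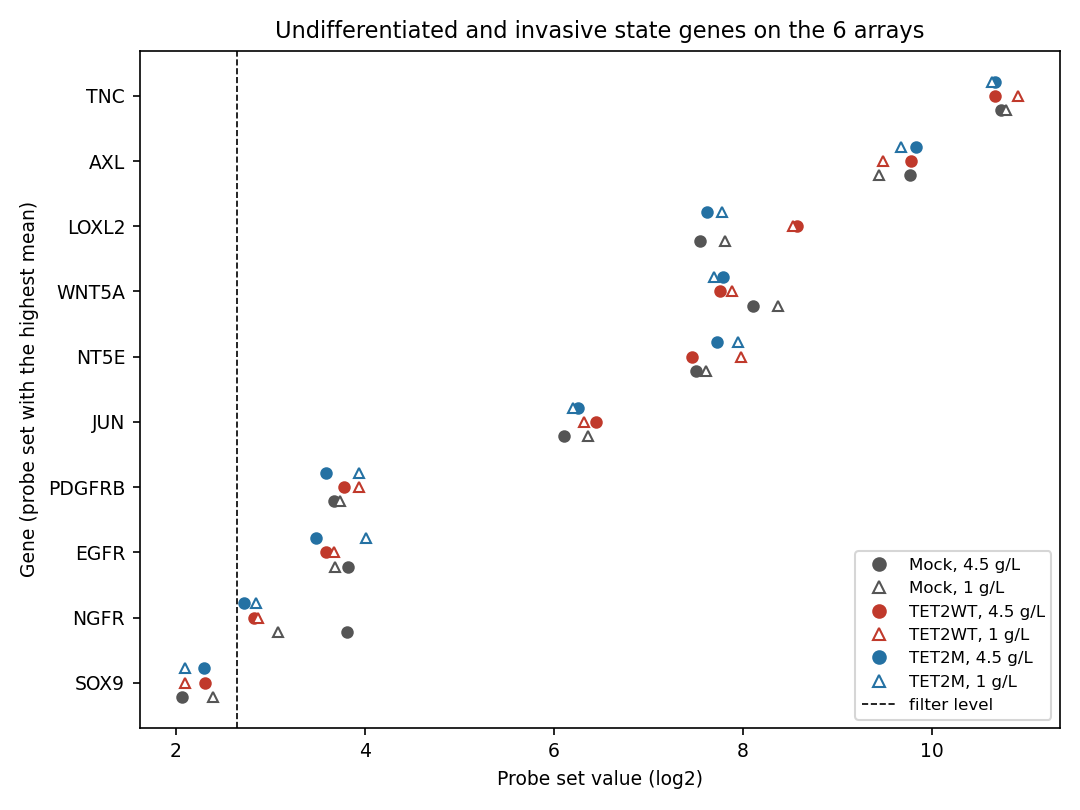
Log2 value (x axis) of the representing probe set of each of the 10 genes (y axis) on the 6 arrays; colours give the line, filled circles 4.5 g/L and open triangles 1 g/L glucose, and the dashed line the filter level of 2.64. The TET2WT arrays stand apart in LOXL2, the Mock arrays lie above the others in WNT5A, NGFR is highest in Mock at 4.5 g/L, and SOX9 lies below the filter level on all 6 arrays.

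The promoters of WNT5A, AXL and NT5E are shown because TET2 acts on the CpG dinucleotides in such stretches. Among the 7 members whose promoters were read, these had the smallest unadjusted p in a comparison of lines or of glucose. Each is the 250 bases before an annotated start, 5′ to 3′ on the gene's strand, from RefSeq (GRCh38.p14), with CpG in capitals. WNT5A lies on the minus strand with starts 1 and 2 preceded by chr3:55487307-55487556 and chr3:55481399-55481648. AXL lies on the plus strand with chr19:41218973-41219222 and chr19:41226505-41226754, and NT5E on the plus strand with chr6:85449833-85450082.
WNT5A start 1: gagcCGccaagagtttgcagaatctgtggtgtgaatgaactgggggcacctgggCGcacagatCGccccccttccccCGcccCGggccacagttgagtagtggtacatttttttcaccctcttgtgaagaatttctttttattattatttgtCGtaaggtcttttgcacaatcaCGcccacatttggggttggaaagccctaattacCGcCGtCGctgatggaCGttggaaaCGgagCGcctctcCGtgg
WNT5A start 2: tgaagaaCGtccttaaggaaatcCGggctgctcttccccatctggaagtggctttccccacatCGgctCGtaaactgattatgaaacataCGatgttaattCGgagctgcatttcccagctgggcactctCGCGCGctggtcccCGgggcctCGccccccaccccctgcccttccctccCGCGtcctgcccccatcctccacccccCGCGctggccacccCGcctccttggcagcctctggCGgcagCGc
AXL start 1: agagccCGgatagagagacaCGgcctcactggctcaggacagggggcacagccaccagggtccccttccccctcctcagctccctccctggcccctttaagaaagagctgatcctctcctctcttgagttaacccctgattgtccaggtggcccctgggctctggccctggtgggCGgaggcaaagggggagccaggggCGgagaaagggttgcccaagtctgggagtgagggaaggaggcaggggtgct
AXL start 2: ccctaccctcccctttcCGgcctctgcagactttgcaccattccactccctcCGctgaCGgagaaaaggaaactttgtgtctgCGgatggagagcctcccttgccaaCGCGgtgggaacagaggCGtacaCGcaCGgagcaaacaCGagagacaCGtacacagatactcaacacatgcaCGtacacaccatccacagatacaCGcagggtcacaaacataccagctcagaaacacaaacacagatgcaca
NT5E start 1: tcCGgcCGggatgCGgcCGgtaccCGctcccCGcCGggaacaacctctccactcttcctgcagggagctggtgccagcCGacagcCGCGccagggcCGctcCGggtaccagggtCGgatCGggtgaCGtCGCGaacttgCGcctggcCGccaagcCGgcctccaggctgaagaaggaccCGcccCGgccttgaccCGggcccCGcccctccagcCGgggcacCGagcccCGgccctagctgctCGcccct
The WNT5A stretches held 14 and 18 CpG, those of AXL 4 and 13, and that of NT5E 28. Over all 35116 promoters of the same length the median was 11. At least 28 CpG were present in 15.9% of them, at least 18 in 36.8%, and at least 4 in 70.7%. Methylation was not measured on these arrays, and which start was used was not analysed here. Motifs were searched at the 10 start sites of the 7 members whose promoters were read. The AP-1 motif TGANTCA, which is the same on either strand, was found at 1 site, the second start of EGFR. The related motif TGACNTCA was searched on the gene's strand only and was found at 1 site, that of JUN. Of all promoters, 6.57% held the first motif and 4.23% the second on that strand.

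Whether these genes followed overexpression of TET2WT was asked by comparing that line with Mock. LOXL2 was higher, and it was the 1 gene of the 9 tested that passed, while 4.21% of all tested genes passed (608 of 14428; 2.01% higher and 2.20% lower). WNT5A and NGFR had negative differences and AXL and TNC lay near 0. Of the 9 differences 6 were positive, with a median of 0.04 against -0.01 over all genes. In RNA from a whole culture, a higher level in every cell and a larger share of cells with the transcript cannot be told apart. At an unadjusted p under 0.05 there were 3 members, LOXL2, WNT5A and NGFR, where 20.2% of all genes reached that level.

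Against Mock, TET2M had 0 of 9 members past the threshold, and 0.0970% of all genes passed (14 of 14428; 0.0277% higher and 0.0693% lower). WNT5A and NGFR were the 2 members with an unadjusted p under 0.05 in limma, both negative, where 9.51% of all genes reached that level. Between TET2WT and TET2M, LOXL2 was the 1 member that passed, against 3.30% of all genes (476 of 14428; 1.86% higher and 1.43% lower), and the other 8 had absolute differences of at most 0.155.

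**Figure D2:**
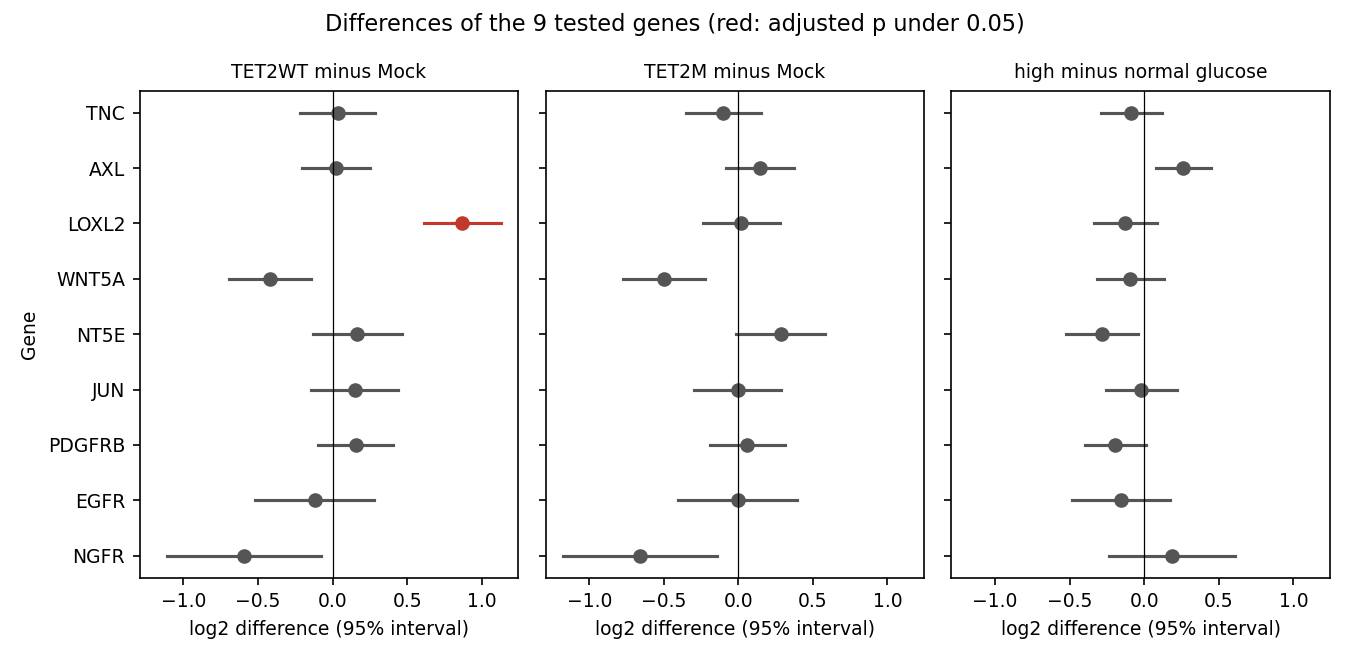
Log2 difference (x axis) of the 9 tested genes (y axis) for TET2WT minus Mock, TET2M minus Mock, and high minus normal glucose; points are limma estimates from 6 arrays, bars the 95% interval of each gene on its own, and red marks an adjusted p under 0.05. LOXL2 in TET2WT is the 1 red point, at 0.87, and WNT5A and NGFR lie left of 0 in both lines.

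AXL is a receptor tyrosine kinase for the ligand GAS6 and the best known marker of the drug-tolerant melanoma state. Its brighter probe set (mean 9.66) read 9.77 and 9.44 in Mock, 9.83 and 9.67 in TET2M and 9.78 and 9.48 in TET2WT. Within each line the array at high glucose was the higher one, and the lines overlapped at both concentrations. The difference between TET2WT and Mock was 0.03 ± 0.093 (95% interval -0.20 to 0.25), and that between TET2M and Mock was 0.14 ± 0.093 (adjusted p = 0.670, limma). The dimmer one (mean 5.51) read 5.62 and 5.25 in Mock, 5.55 and 5.53 in TET2M and 5.93 and 5.18 in TET2WT, again with no separation of the lines.

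EGFR, the receptor of epidermal growth factor, is often raised when melanoma cells lose the lineage programme. Its 9 probe sets lay between 2.32 and 4.07 on all arrays, and 8 of them passed the filter. The representing set read 3.82 and 3.68 in Mock, 3.48 and 4.01 in TET2M and 3.59 and 3.67 in TET2WT. These values overlapped, and the TET2WT difference from Mock was -0.12 ± 0.16 (adjusted p = 0.739, limma). TET2WT was above Mock at both concentrations in 3 of the 9 probe sets and below it at both in 3. The EGFR probe sets thus gave no common direction at this low level.

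PDGFRB encodes the β receptor of platelet-derived growth factor, which is raised in some melanomas resistant to BRAF inhibitors. Its 1 probe set read 3.67 and 3.74 in Mock, 3.59 and 3.94 in TET2M and 3.78 and 3.94 in TET2WT. TET2WT was above Mock by 0.11 at high and 0.20 at normal glucose, and the fitted value was 0.15 ± 0.10 (adjusted p = 0.466, limma). In each of the 3 lines the array at normal glucose was the higher one.

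NGFR, the low-affinity receptor of nerve growth factor, marks the neural crest-like state. Its 1 probe set read 3.81 and 3.08 in Mock, 2.72 and 2.85 in TET2M and 2.83 and 2.87 in TET2WT. Both Mock arrays lay above the other 4, but the Mock array at high glucose stood well above the rest. Against Mock, TET2WT differed by -0.59 ± 0.21 (adjusted p = 0.196, limma) and TET2M by -0.66 ± 0.21 (adjusted p = 0.429, limma). These values rest on that 1 array: without it they were -0.19 and -0.25.

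WNT5A is a secreted ligand that acts mainly outside the β-catenin branch of WNT signalling and promotes melanoma motility. The brighter probe set (mean 7.93) read 8.11 and 8.37 in Mock, 7.79 and 7.69 in TET2M and 7.76 and 7.88 in TET2WT. The dimmer one (mean 7.30) read 7.55 and 7.59 in Mock, 7.30 and 7.21 in TET2M and 6.90 and 7.23 in TET2WT. In both probe sets the Mock arrays were the highest, with no overlap with either overexpressing line. For the brighter one TET2WT differed from Mock by -0.42 ± 0.11 (adjusted p = 0.113, limma) and TET2M by -0.50 ± 0.11 (adjusted p = 0.334, limma), and neither passed. For the dimmer one these values were -0.51 ± 0.13 (adjusted p = 0.114) and -0.32 ± 0.13 (adjusted p = 0.574) when every probe set was tested in limma. With an intensity trend in limma's prior the brighter probe set passed in both comparisons, at adjusted p = 0.00937 and 0.0205. That setting also called many more of all genes than the 608 and 14 of the main fit. TET2WT and TET2M differed by 0.08 ± 0.11 (95% interval -0.20 to 0.36).

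NT5E encodes CD73, the surface enzyme that makes adenosine from AMP. The representing probe set (mean 7.71) read 7.50 and 7.61 in Mock, 7.73 and 7.95 in TET2M and 7.46 and 7.98 in TET2WT. In each line the array at normal glucose was higher, most so in TET2WT, and the lines overlapped. TET2WT differed from Mock by 0.17 ± 0.12 (adjusted p = 0.514, limma) and TET2M by 0.28 ± 0.12 (adjusted p = 0.543, limma). The other 3 probe sets read 4.10 to 6.71, and in TET2M their differences from Mock ran from -0.20 to 0.07, smaller than that of the representing probe set or negative.

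LOXL2 is a secreted lysyl oxidase-like enzyme that crosslinks collagen and promotes invasion. The representing probe set (mean 7.98) read 7.55 and 7.81 in Mock, 7.62 and 7.78 in TET2M and 8.57 and 8.53 in TET2WT. Both TET2WT arrays lay above the other 4 by at least 0.72. The difference was 0.87 ± 0.11 from Mock (95% interval 0.61 to 1.13; 1.83-fold; adjusted p = 0.0137, limma) and 0.85 ± 0.11 from TET2M (95% interval 0.59 to 1.11; adjusted p = 0.0150, limma). TET2M differed from Mock by 0.02 ± 0.11, with an interval of -0.24 to 0.28. The TET2WT difference was 1.02 at high and 0.72 at normal glucose.

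The LOXL2 probe sets did not all give this size. The next probe set, with a mean of 3.86, read 3.72 and 3.83 in Mock, 3.56 and 3.89 in TET2M, and 4.07 and 4.09 in TET2WT, a difference from Mock of 0.30 ± 0.11 (adjusted p = 0.239, limma over every probe set). The remaining pair, with means of 3.21 and 2.71, differed by -0.10 and 0.06. With the mean of the 4 probe sets the LOXL2 difference was 0.28 from Mock (adjusted p = 0.205, limma) and 0.24 from TET2M (adjusted p = 0.327, limma), and neither passed. Leaving out any 1 of the 6 arrays kept the difference from Mock between 0.745 and 0.995, and that from TET2M between 0.725 and 0.975. These fits had 1 residual degree of freedom and little power, so they cannot decide on a call.

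TNC encodes tenascin-C, a matrix glycoprotein of wounds and invasive tumour fronts. Its brightest probe set (mean 10.73) read 10.73 and 10.78 in Mock, 10.67 and 10.64 in TET2M and 10.67 and 10.91 in TET2WT. The 3 lines overlapped, with 0.03 ± 0.10 between TET2WT and Mock (adjusted p = 0.886, limma) and -0.10 ± 0.10 between TET2M and Mock (adjusted p = 0.802, limma). Its probe sets with means of 5.23 and 3.05 gave TET2WT differences of 0.07 and -0.14. None of the 3 probe sets was on the same side of Mock at both glucose concentrations.

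**Figure D3:**
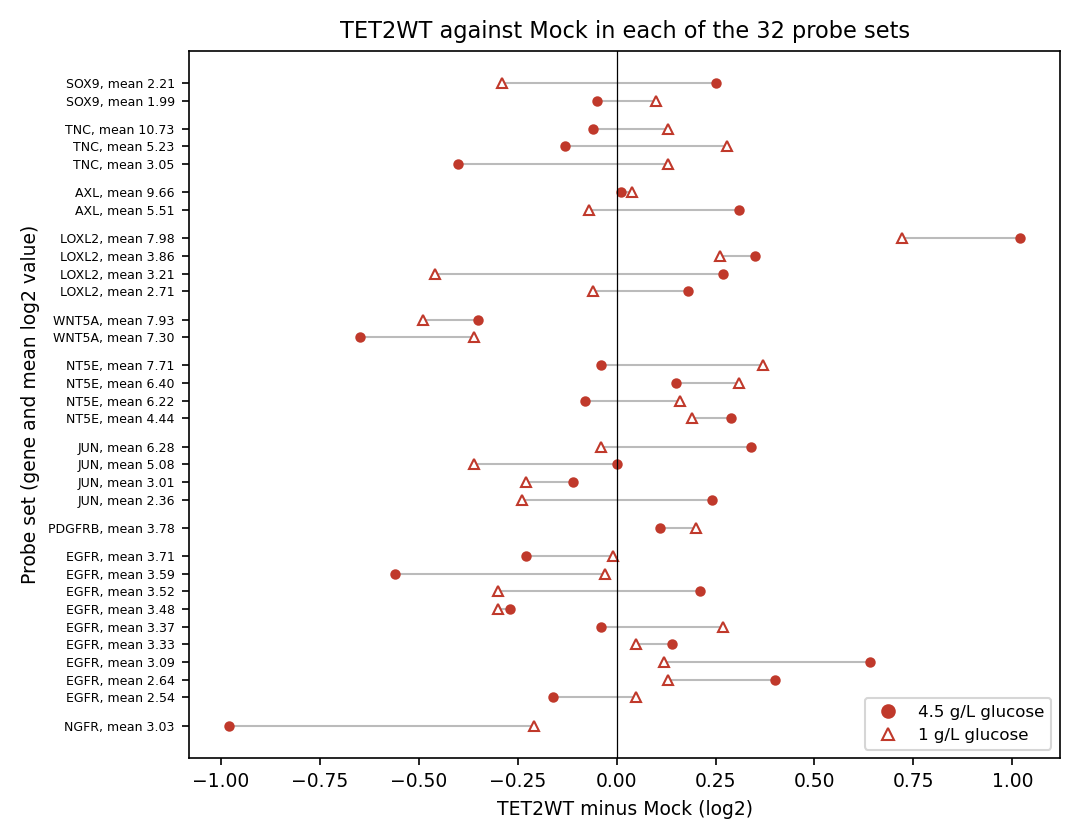
TET2WT minus Mock (log2, x axis) in each of the 32 probe sets (y axis, gene and mean log2 value), with filled circles at 4.5 g/L and open triangles at 1 g/L glucose, 1 array against 1 array and no test. The brightest LOXL2 probe set lies at 1.02 and 0.72, both WNT5A probe sets lie left of 0 at both concentrations, and the EGFR probe sets fall on both sides of 0.

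JUN is a subunit of the AP-1 transcription factor. The representing probe set (mean 6.28), whose name ends in x_at for probes that can match other sequences, read 6.11 and 6.36 in Mock, 6.26 and 6.20 in TET2M and 6.45 and 6.32 in TET2WT. The values overlapped, with a TET2WT difference of 0.15 ± 0.12 (adjusted p = 0.543, limma). The probe set with a mean of 5.08 gave -0.18 ± 0.12 (adjusted p = 0.515, limma over every probe set), the opposite sign. SOX9, a neural crest factor found in melanoma cells that have lost SOX10, read 1.81 to 2.39 over both of its probe sets and all 6 arrays, while SOX10 read at least 9.38.

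Glucose was the other variable, and its comparison asked which members followed the concentration in the 3 lines together. None of the 9 members passed, and 0.00693% of all genes did (1 of 14428). At an unadjusted p under 0.05 in limma there were 2 members, AXL and NT5E, where 15.4% of all genes reached that level. Of the 9 differences 7 were negative, with a median of -0.09 against -0.02 over all genes.

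AXL was the member with the clearest positive glucose difference, at 0.26 ± 0.076 (95% interval 0.08 to 0.45; adjusted p = 0.221, limma). High minus normal was 0.33 in Mock, 0.16 in TET2M and 0.30 in TET2WT for the brighter probe set. For the dimmer one it was 0.37, 0.02 and 0.75, so the array at high glucose read higher in each line with both probe sets. Both probe sets were read on the same arrays and are not separate replicates. With an intensity trend in limma's prior AXL passed, at adjusted p = 0.0127. That setting also called many more of all genes by glucose than the 1 of the main fit.

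NT5E ran the other way, at -0.28 ± 0.099 (95% interval -0.53 to -0.04; adjusted p = 0.273, limma). For its representing probe set the differences were -0.11 in Mock, -0.52 in TET2WT and -0.22 in TET2M. Its 4 probe sets were read on the same 3 pairs of arrays and are not separate replicates. Of these 12 readings 11 were lower at high glucose, the exception being 0.02 in Mock for the probe set with a mean of 6.22. PDGFRB was lower at high glucose in 3 of 3 lines, at -0.19 ± 0.084 (adjusted p = 0.345, limma). The remaining members had absolute glucose differences of at most 0.19.

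**Figure D4:**
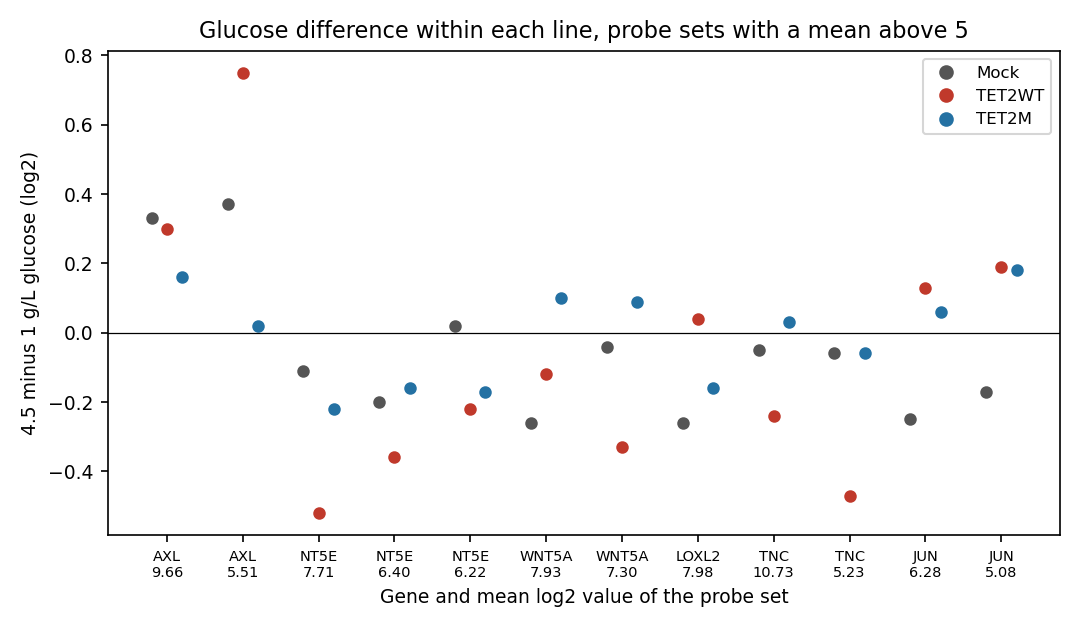
High minus normal glucose (log2, y axis) within each line, 1 array against 1 array, for the 12 probe sets of the members with a mean above 5 (x axis, gene and mean log2 value). All 6 AXL points lie above 0, and 8 of the 9 NT5E points lie below it. Points of the same line come from the same pair of arrays.

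A glucose response particular to TET2WT was sought with a further term, which set the response of TET2WT against the mean of Mock and TET2M. No member passed in limma, none had an unadjusted p under 0.05, and 0% of all genes passed, while 9.18% had an unadjusted p under 0.05. The largest differences were -0.35 ± 0.11 for NT5E (adjusted p = 0.531, limma) and -0.34 ± 0.46 for NGFR (adjusted p = 0.800, limma), and LOXL2 had one of 0.25 ± 0.11 (adjusted p = 0.557, limma). With 1 residual degree of freedom this test recovered 0% of genes simulated to change 4-fold, so it could not have called changes of the size seen here.

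Ligands, receptors and relatives of the members were taken as a list of 98 genes, of which 75 were tested. Against Mock 5 were higher and 5 lower in TET2WT, with a median of -0.05. Over all tested genes 2.01% were higher and 2.20% lower. In limma 0 passed in TET2M or by glucose, where 10 and 12 had an unadjusted p under 0.05. Of all genes 9.51% and 15.4% reached that level. Of the platelet-derived growth factors, PDGFA, PDGFC and PDGFD passed. PDGFB did not, at -0.055 ± 0.11 (adjusted p = 0.828, limma). PDGFA, a ligand of the α receptor, read 4.80 and 4.60 in Mock, 4.55 and 4.60 in TET2M and 6.70 and 6.54 in TET2WT, a difference from Mock of 1.92 ± 0.10 (adjusted p = 0.000778, limma). PDGFC was higher by 0.83 ± 0.12 (adjusted p = 0.0223, limma), and PDGFRL, a receptor-like relative, by 0.75 ± 0.14 (adjusted p = 0.0452, limma).

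PDGFD, a ligand of the β receptor, read 4.65 and 4.36 in Mock, 4.83 and 4.24 in TET2M and 3.01 and 3.17 in TET2WT. It was thus lower in TET2WT, with a difference of -1.42 ± 0.18 (adjusted p = 0.0144, limma). The PDGFD difference was -0.792 with the mean of its probe sets (adjusted p = 0.0416, limma). Of the 6 tested genes around PDGFRB, 3 were higher in TET2WT and 1 was lower, while PDGFRB itself did not pass.

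Genes around WNT5A had a median difference of -0.24 in TET2WT, and 2 of 13 were positive. The planar polarity gene VANGL2 fell by 0.77 (SE 0.11; adjusted p = 0.0208, limma) and the WNT5A receptor ROR1 fell by 0.53 (SE 0.087; adjusted p = 0.0333, limma). VANGL2 read 4.12 and 3.96 in Mock, 3.33 and 3.35 in TET2M and 3.43 and 3.11 in TET2WT, and ROR1 read 4.09 and 4.14, 3.76 and 3.74, and 3.61 and 3.57 in the same order of lines. In both genes, as in WNT5A, the Mock arrays were the highest of the 6. ROR1 did not pass with the mean of its probe sets, at -0.353 (adjusted p = 0.0786, limma). The receptors FZD7 and FZD4 had differences of -0.77 ± 0.17 (adjusted p = 0.0700, limma) and -0.59 ± 0.14 (adjusted p = 0.0833, limma).

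Among genes that bind tenascin-C, the receptor phosphatase PTPRZ1 fell by 1.29 in TET2WT (SE 0.17; adjusted p = 0.0175, limma) and the proteoglycan SDC4 fell by 0.565 (SE 0.086; adjusted p = 0.0256, limma). SDC4 had a similar negative value in TET2M, at -0.515 (adjusted p = 0.198, limma), which did not pass. PTPRZ1 read 3.39 and 3.80 in Mock and 2.41 and 2.19, below the filter level, in TET2WT. ERBB2, the receptor that pairs with EGFR, was higher by 0.65 ± 0.095 (adjusted p = 0.0229, limma), and the NGFR adaptor MAGED1 by 0.56 ± 0.091 (adjusted p = 0.0317, limma). The AXL relative TYRO3 had a difference of -0.47 ± 0.099 (adjusted p = 0.0589, limma), and the AXL ligand GAS6 one of 0.03 ± 0.11.

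Of the other lysyl oxidase genes, LOXL3 and LOXL4 were tested, and neither passed between TET2WT and Mock. LOXL4 read 8.72 and 9.30 in Mock, 9.07 and 9.70 in TET2M and 7.26 and 8.84 in TET2WT. It was lower in TET2WT than in TET2M, at -1.33 ± 0.25 (adjusted p = 0.0498, limma), and its difference from Mock was -0.96 ± 0.25 (adjusted p = 0.102, limma). LOXL3 differed from Mock by 0.18 ± 0.088 (adjusted p = 0.324, limma). None of the 13 tested AP-1 relatives around JUN or the 10 adenosine pathway genes around NT5E passed in limma for TET2WT against Mock. There 2 and 1 of them had an unadjusted p under 0.05, while 20.2% of all genes reached that level and 4.21% passed. None of them passed in the comparisons with TET2M or of glucose either.

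Of 56 other genes known from the invasive state, 51 were tested, and in TET2WT 4 were higher and 9 lower than in Mock, with a median of -0.16. PDGFC, among these 4, was also counted with the ligands and relatives above. MITF is likewise in both the transcription factor and the melanocyte list below, so the list counts are not separate. Over all genes 2.01% were higher and 2.20% lower. Against TET2M 3 were higher and 4 lower, where 1.86% and 1.43% of all genes were. In limma 0 passed between TET2M and Mock or by glucose, where 11 and 16 had an unadjusted p under 0.05. Of all genes 9.51% and 15.4% reached that level. IGFBP3, which binds insulin-like growth factors, read 9.12 and 9.24 in Mock, 8.51 and 9.30 in TET2M and 6.40 and 7.33 in TET2WT, a difference of -2.31 ± 0.20 (adjusted p = 0.00458, limma). S100A2, a calcium-binding protein, read 10.23 and 9.72, 10.51 and 9.85, and 12.00 and 11.64 in the same order, a difference of 1.84 ± 0.11 (adjusted p = 0.000951, limma). In both genes the TET2WT arrays lay outside the range of the other 4.

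The oncostatin M receptor OSMR was higher by 1.32 ± 0.17 (adjusted p = 0.0157, limma). The OSMR difference was 0.55 with the mean of its probe sets (adjusted p = 0.0356, limma). EFEMP1, a matrix glycoprotein, was higher by 1.24 ± 0.14 (adjusted p = 0.0101, limma). The other genes lower in TET2WT were the caveolin gene CAV1, TNFRSF11B, IGFBP6, the activin subunit gene INHBA, HMGA2, NUAK1, the tropomyosin gene TPM1 and MYOF, between -1.005 for TNFRSF11B and -0.475 for MYOF. INHBA and HMGA2 had similar negative values in TET2M, at -0.79 and -0.78, which did not pass. With the mean of a gene's probe sets the calls of HMGA2, TPM1 and MYOF were lost, at -0.18 (adjusted p = 0.325), -0.506 (adjusted p = 0.0694) and -0.423 (adjusted p = 0.0539) in limma. The invasive state genes thus had called genes in both directions in TET2WT.

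**Figure D5:**
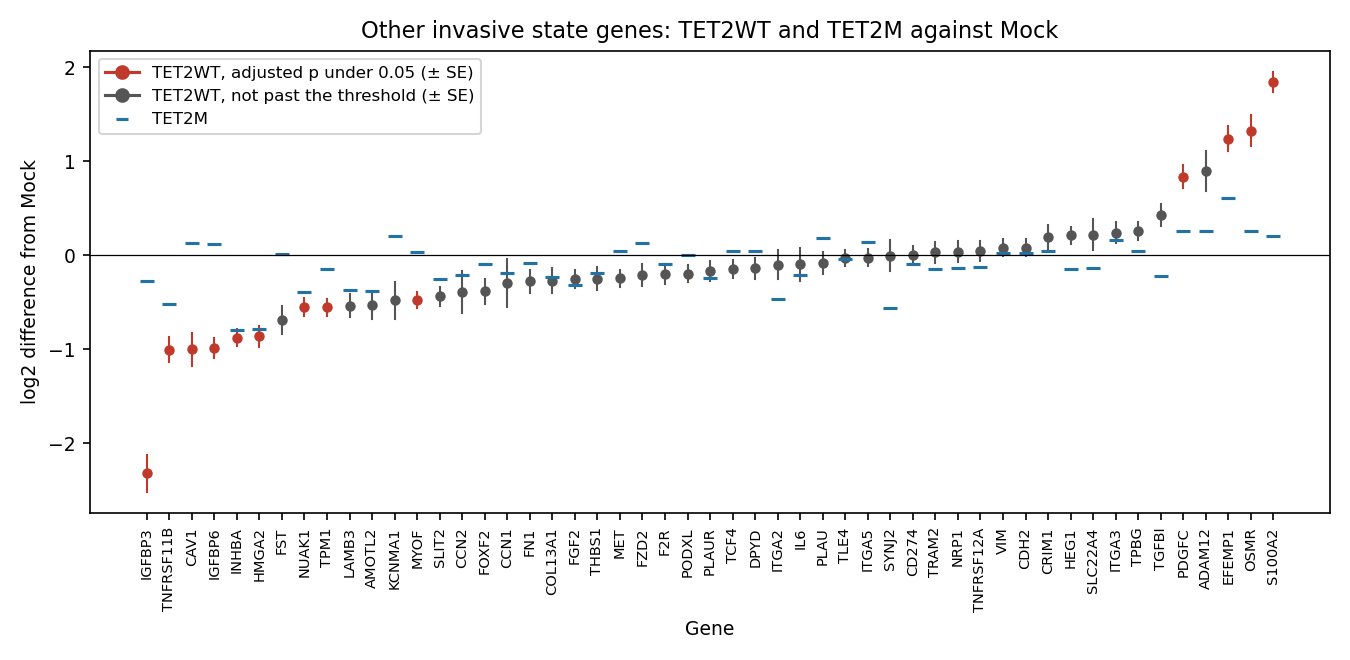
Log2 difference from Mock (y axis) of the 51 tested invasive state genes (x axis, sorted) in TET2WT, as points with SE from limma over 6 arrays (red: adjusted p under 0.05), and in TET2M, as blue dashes. IGFBP3 at -2.31 and S100A2 at 1.84 end the range in TET2WT, while the TET2M dashes of both lie within 0.30 of 0.

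Transcription factors of the melanoma states numbered 28, all tested, and in TET2WT 1 was higher and 2 were lower than in Mock, with a median of -0.04. Over all genes 2.01% were higher and 2.20% lower. TFAP2A, a factor of the melanocyte lineage, read 4.49 and 4.34 in Mock, 4.71 and 4.51 in TET2M and 5.34 and 5.42 in TET2WT, a difference of 0.96 ± 0.10 (adjusted p = 0.00997, limma). MITF was lower, at -0.60 ± 0.11 (adjusted p = 0.0433, limma), as was TWIST1, a factor of epithelial-mesenchymal transition, at -0.66 ± 0.12 (adjusted p = 0.0443, limma). SOX10 differed by 0.12 ± 0.087 (adjusted p = 0.524, limma). The 8 AP-1 and TEAD factors had 0 calls in limma, with 4 at an unadjusted p under 0.05, where 20.2% of all genes reached that level.

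Of 20 tested neural crest genes, 1 was higher in TET2WT than in Mock and 0 were lower: NES, the intermediate filament gene nestin, at 0.62 ± 0.091 (adjusted p = 0.0229, limma). Over all genes 2.01% were higher and 2.20% lower in this comparison. CDH19, a cadherin of Schwann cell precursors, had a difference of 0.84 ± 0.18 (adjusted p = 0.0656, limma), and FOXD3 one of -0.53 ± 0.12 (adjusted p = 0.0747, limma). Of 13 tested melanocyte genes, 1 was higher, the melanosome transport gene RAB27A at 0.55 ± 0.094 (adjusted p = 0.0366, limma), and 1 was lower, MITF. RAB27A did not pass with the mean of its probe sets, at 0.274 (adjusted p = 0.136, limma). In TET2M 0 of the neural crest and melanocyte genes passed in limma, with 2 and 3 at an unadjusted p under 0.05. Of all genes 9.51% reached that level.

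By glucose no gene of these lists passed, but some had larger differences than any member. The integrin gene ITGA9, a tenascin receptor, read 5.39 and 5.99 in Mock, 4.51 and 5.59 in TET2M, and 3.93 and 6.11 in TET2WT, a high minus normal difference of -1.29 ± 0.28 (adjusted p = 0.168 in limma), with the same sign in 3 of 3 lines. LOXL4 had one of -0.93 ± 0.20 (adjusted p = 0.168, limma). EFEMP1 ran the other way, at 1.15 ± 0.11 (adjusted p = 0.0783, limma), as did TPM1, at 0.69 ± 0.072 (adjusted p = 0.0783, limma). INHBA was at -0.70 ± 0.073 (adjusted p = 0.0783, limma), with 8.96 against 9.62 in Mock, 8.11 against 8.89 in TET2M and 8.08 against 8.75 in TET2WT. The neural crest factor TFAP2B was at -0.63 ± 0.11 (adjusted p = 0.136, limma) and the stress factor ATF3 at 0.69 ± 0.16 (adjusted p = 0.172, limma). Of the 51 tested invasive state genes, 32 had a positive glucose difference, with a median of 0.07 against -0.02 over all genes.

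All calls named for TET2WT against Mock rest on the spread estimated from the 6 arrays together. Without the TET2M line, 0 genes passed in limma in each of these 5 lists. That fit, and each fit without 1 array, had 1 residual degree of freedom. Such fits have little power, so calls lost in them do not tell genes apart. In these fits PDGFA kept a difference of at least 1.85, S100A2 of at least 1.73 and IGFBP3 of at most -1.94. Without the glucose term, limma no longer called PDGFC, EFEMP1, MITF, TWIST1, NES, CAV1, INHBA, NUAK1, TPM1, MYOF or LUM in that comparison, nor LOXL4 between TET2WT and TET2M. With every probe set tested on its own, PDGFRL, TWIST1, NUAK1 and LOXL4 had adjusted p between 0.0541 and 0.0602 in limma, TWIST1 had 0.0524 after quantile normalization, and MYOF had 0.0503 with no filter.

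Markers of cell types other than melanoma were summed on the linear scale in each array. The summed linear level of 9 endothelial markers was 77.8 to 87.6 over the arrays, and that of 7 blood markers 79.1 to 118. The 14 fibroblast markers summed to 565 to 751, of which 2 had a mean above 5 (log2), and COL1A2, COL3A1, FAP and POSTN lay below the filter. Most of this sum came from PRRX1, at 8.59 to 9.20 (log2), which is also among the transcription factors of the melanoma states listed above. The fibroblast sum was 565 and 613 in Mock, 574 and 751 in TET2M and 702 and 735 in TET2WT, so it overlapped between TET2WT and TET2M. Single markers did move: in TET2WT against Mock COL6A3 was higher by 1.52 and FBLN1 by 1.01, and LUM was lower, at -1.06 (adjusted p = 0.0137 at most, limma). The 7 keratinocyte markers summed to 760 to 857, mostly from KRT10 at 9.23 to 9.39 (log2), and KRT14 was lower, at -2.40 (adjusted p = 0.000442, limma). Of the blood markers LYZ was lower, at -0.765 (adjusted p = 0.0116, limma). LYZ had a similar negative value in TET2M, at -0.74 (adjusted p = 0.0899, limma), which did not pass. The part of other cell types in the differences was not tested.

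To find genes with profiles like those of the members, the mean absolute difference between centred profiles over the 6 arrays was computed for the members whose arrays ranged over at least 1 log2 unit, which were LOXL2 and NGFR. Among 583 tested genes with that range, those most like LOXL2 were RGS2, NLRP2 and APLP2, at 0.07, 0.07 and 0.08. RGS2 read 7.48 and 7.60 in Mock, 7.29 and 7.51 in TET2M and 8.33 and 8.39 in TET2WT. Those most like NGFR were ZFP69, ABCA11P and FAXC, at 0.12, 0.13 and 0.13, each highest in Mock at high glucose. These values describe 6 arrays and carry no test.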

How the data were processed

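RNA of the 3 A2058 lines at 2 glucose concentrations was measured on 6 Affymetrix arrays. The authors deposited log2 values per probe set, which the submitters' processing notes trace to Affymetrix Expression Console. The version and the summary method were not given in the sources used here, and the base of the log was inferred from the range of the values. After sorting, the 6 columns lay within 0.12 of each other at every rank, which shows a between-array normalization before deposit.

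Single-gene probe sets of the platform annotation were kept (41097), with symbols updated by gene ID from a RefSeq gene table (GRCh38.p14), and those with a mean below the 40th percentile (2.64) were left out. Where a gene had several, the one with the highest mean represented it. Models with terms for line and glucose used limma 3.58.1 under R 4.3.3 (2 residual degrees of freedom, prior 3.97), and for the TET2WT-specific response with a further glucose term (1 and 1.72). Tests were two-sided, adjusted over 14428 genes by the Benjamini-Hochberg method, with a threshold of 0.05. Intervals cover 95%. Python 3.11.15 with matplotlib 3.10.9 drew the figures.

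The members and the lists were chosen with earlier results of these data known. The promoters of LOXL2, NGFR and SOX9 were not read. The choice of promoters shown therefore leaves out LOXL2, the member with the smallest unadjusted p. Named from the lists were up to 4 genes with the largest TET2WT difference from Mock in each list or role group, up to 2 for other comparisons, and genes that passed. CAV1, TNFRSF11B, IGFBP6, NUAK1, TPM1, MYOF, COL6A3, FBLN1, LUM, KRT14 and LYZ were named after their values had been seen. In simulated data with 200 of 14428 genes changed, 91.5% of 2-fold changes and 0% of 1.5-fold changes were recovered for TET2WT against Mock, with 9 and 0 false calls. The number of arrays limits the precision. Alternatives were other normalizations, filters, probe set rules, model terms, and lines or arrays left out.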

Additional observations from a re-analysis of the deposited data

How the results depend on the processing

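Over the 9 tested members, their 5 comparisons and all alternatives, 586 values were recomputed: 528 kept their direction and side of the threshold, 16 lost the call (all of LOXL2), 3 gained one and 39 changed sign. The settings for counts over the lists were chosen after the data had been seen. The model compares glucose within the 3 lines, as pairs, and the lines within each concentration; no further block was fitted, since the labels carry no replicate numbers. An adjusted p from limma on so few arrays, and the brightness of EGFR, PDGFRB, NGFR and SOX9 over background, limit these values.

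With an intensity trend in the prior, 2 members passed between TET2WT and Mock (LOXL2 and WNT5A), 1 between TET2M and Mock (WNT5A) and 1 by glucose (AXL). In the same order, this setting also called many more of all 14428 genes than the 608, 14 and 1 of the main fit. In the lists for TET2WT against Mock it gave 20 of 51 invasive state genes, 18 of 75 partner genes, 8 of 28 transcription factors and 4 of 20 neural crest genes. For the settings that follow, the share of all genes that passed is not given, so their list counts show no excess or lack. With the mean of a gene's probe sets, 0 members passed in TET2WT against Mock and 0 against TET2M, and 5 transcription factors and 1 melanocyte gene passed. With every probe set tested on its own, 2 neural crest genes and 0 melanocyte genes passed, and quantile or cyclic loess normalization gave 2 neural crest genes. Without the glucose term 6 invasive state genes, 1 transcription factor, 0 neural crest genes and 1 melanocyte gene passed. With the line not compared left out, 0 members and 0 genes of the 5 lists passed. These fits, and those with any 1 array left out, had 1 residual degree of freedom. With so little power they cannot decide which calls hold.

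Signs changed only among differences that had not passed. Quantile normalization gave 0.0158 for EGFR and 0.0433 for JUN between TET2M and Mock, and loess 0.0291 for JUN. The mean of probe sets gave, between TET2WT and Mock, 0.0138 for EGFR, -0.00833 for TNC and -0.0667 for JUN. Between TET2M and Mock it gave -0.00875 for NT5E, and between TET2WT and TET2M 0.09 for EGFR, -0.055 for WNT5A and 0.1775 for NT5E. Without the Mock line the glucose difference was -0.085 for NGFR and 0.095 for JUN, and without the TET2M line 0.03 for EGFR.
With each array left out in turn, differences that changed sign ranged as follows. For TET2WT against Mock the ranges were AXL -0.025 to 0.075, EGFR -0.3425 to 0.1025, JUN -0.0225 to 0.3225, NT5E -0.0125 to 0.3425 and TNC -0.08 to 0.15. For TET2M against Mock the ranges were EGFR -0.285 to 0.275, JUN -0.1775 to 0.1675, LOXL2 -0.08 to 0.12 and PDGFRB -0.0575 to 0.1775. For TET2WT against TET2M the ranges were EGFR -0.395 to 0.165, NGFR -0.1725 to 0.3025, NT5E -0.2975 to 0.0575, PDGFRB -0.0225 to 0.2125 and WNT5A -0.065 to 0.225. For high against normal glucose the ranges were EGFR -0.305 to 0.03, JUN -0.095 to 0.095 and NGFR -0.085 to 0.345. The cause of these changes was not tested.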

Other observations

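The 4 tested genes nearest to each member on its chromosome were read for the same comparisons. Around LOXL2, whose own difference between TET2WT and Mock was 0.87, none passed: LOXL2-AS1 had a difference of -0.02, R3HCC1 of -0.14, ENTPD4 of 0.03 and CHMP7 of 0.01. Whether the arrays separate the strands of LOXL2 and LOXL2-AS1 was not tested. Around WNT5A the 4 differences lay between -0.27 and 0.09 and around AXL between -0.06 and 0.26, and none passed. The 1 neighbour that passed was SLC39A11, a zinc transporter gene near SOX9, which was higher in TET2WT by 0.84 ± 0.099 (adjusted p = 0.0124, limma), while SOX9 lay below the filter. MYSM1, near JUN, had a difference of -0.42 ± 0.085 (adjusted p = 0.0560, limma). These neighbours were read after the members' values had been seen.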
